A study of Mus musculus with 7 samples.

Results

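Imprinted genes are read mainly from 1 of the 2 parental copies, and 39 names from the known mouse clusters were listed for the neonatal dorsal midbrain. Of these, 38 matched a gene symbol in the deposited tables of 52636 genes, and 37 had enough reads to be tested. The remaining entry, a placeholder written Ddc-placeholder, names no gene and has no value here. *Phlda2*, with 31 counts over all libraries, was counted but not tested. By the copy usually expressed, the list holds 21 paternal genes, 10 maternal genes and 8 names for which the copy depends on the tissue or the transcript.

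RNA was sequenced from the dorsal midbrain of 3 control mice (A2 at P4, A4 at P3 and A6 at P4) and 4 *Brn3b* cKO mice (B1 at P4, B7 at P2, B8 at P4 and B9 at P2). The sample labels call the first group heterozygote and the second homozygote. The study describes the controls as *Brn3b* flox/+ with *En1-Cre* and the cKO mice as *Brn3b* flox/- with *En1-Cre*. The Cre and a floxed allele with an alkaline phosphatase reporter were thus common to both groups, which differ in the other allele. *En1-Cre* acts in the midbrain and hindbrain. The strain of the sequenced mice was not given in the sources used here. Values below are counts scaled to library size (CPM, with TMM factors), always in the order A2, A4 and A6 and then B1, B7, B8 and B9. Gene positions are those of GENCODE vM21 on GRCm38.

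Imprinting is set in the germ line, where DNA methylation is laid down on an imprinting control region of the egg or the sperm genome and then kept through development. The genes sit in clusters in which protein-coding genes, long non-coding RNAs and small RNAs share a control region, and many of them steer growth, feeding and brain development. In neurons several of them leave the rule of other tissues: *Ube3a* is silenced on the paternal copy, *Igf2r* is read from both copies and *Grb10* switches to the paternal copy. The counts do not separate the parental copies, so a level here is the sum over both.

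The libraries held 23588248 to 87572085 counts on genes, and the targeted gene, *Pou4f2* (*Brn3b*), was at 45.8 to 47.4 CPM in the controls and 9.65 to 11.6 CPM in the cKO mice, with no overlap. B8 stood apart from the other cKO mice. Its level lay inside the range of the 3 controls for 22 of the 37 members tested, against 12 for B1, 5 for B7 and 7 for B9. Over all 21817 genes tested the same shares were 61.8% for B8 and 20.1% to 23.1% for the other 3. In *Pou4f2* itself, B8 was at 10.6 CPM, like the rest of its group. Fold changes of single genes between the genotypes are therefore mostly given with and without B8. Those fitted after a trend with GC content and exon length was removed are mostly given without B8 only. With all 7 mice that fit called no member. B8 was set apart by its levels, which are the measure compared, so the values without it describe the other 6 mice and are not independent support for a difference between the genotypes.

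Most members lay above the median level of the genes tested. Per kilobase of merged exon, the median member was at 10.5 CPM per kb over all 7 mice, the median tested gene was at 3.0 CPM per kb, and 31 of the 37 tested members lay above the latter. The highest level belonged to *Nnat*, which encodes the small membrane proteolipid neuronatin, at 1212 ± 426 CPM per kb (SD, n = 7). *Meg3*, a maternally expressed long non-coding RNA, followed at 591 ± 150.4 CPM per kb. The ranges of these leading genes met, since the highest *Meg3* value was 748 and the lowest *Nnat* value 736 CPM per kb. *Nap1l5* (245 ± 18.5) and *Snrpn* (222 ± 24.5) came next and overlapped in range, and *Ndn* (143 ± 28.9) lay below both of them.

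A middle group ran from *Igf2* at 74.3 ± 17.96 CPM per kb through *Blcap*, *Peg13* and *H19* to *Rian* at 59.6 ± 10.5, and the ranges of these 5 overlapped. *Peg3* was at 36.9 ± 15.1 CPM per kb and *Impact* at 31.3 ± 2.69. Another 18 members, from *Cdkn1c* at 25.6 ± 7.302 to *Commd1* at 3.95 ± 0.762, formed a run in which each neighbour overlapped the next. *Sgce* (3.795 ± 0.485) lay above *Kcnq1ot1* (2.41 ± 0.2899) with no overlap, and *Asb4* (2.33 ± 0.753) overlapped the latter. *Dlk1* (1.99 ± 0.618), *Slc38a4* (1.88 ± 0.322) and *Calcr* (1.83 ± 0.887) were the lowest of the members above 1 CPM. *Dio3*, which encodes a thyroid hormone-inactivating deiodinase, had 17 to 58 counts per library. *Phlda2*, which restrains placental growth, had 2, 4 and 9 counts in the controls and 0, 4, 4 and 8 in the cKO mice.

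**Figure D1:**
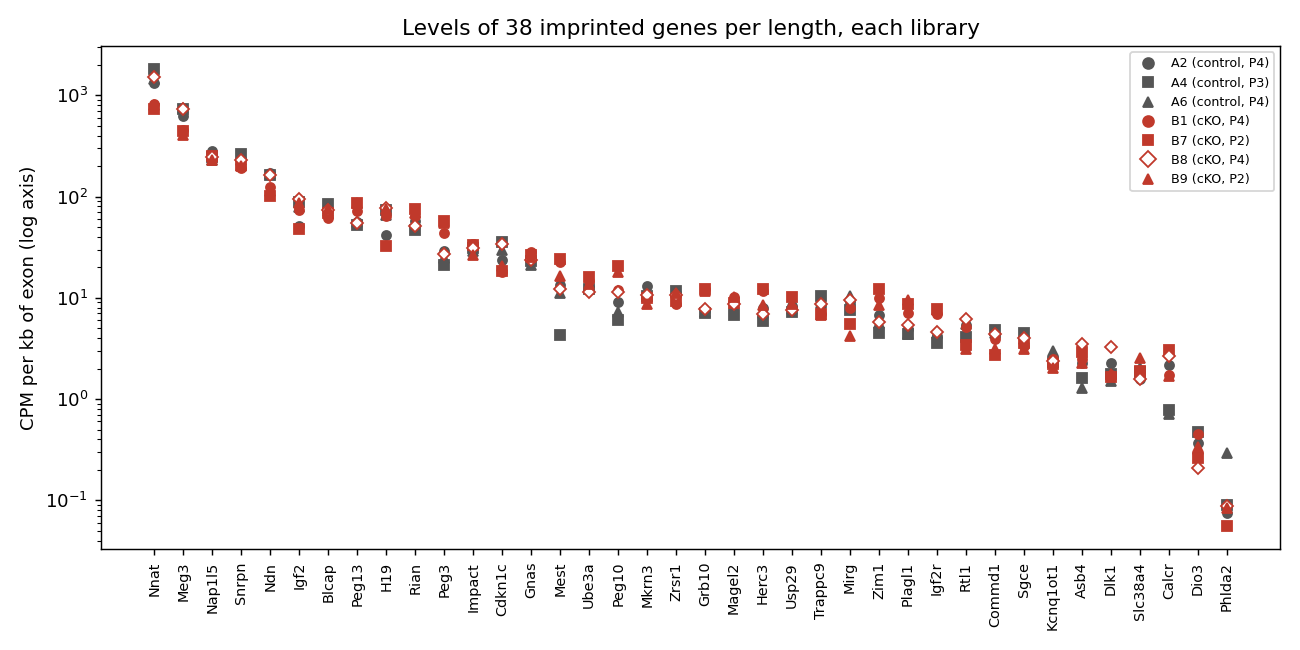
CPM per kilobase of merged exon (log axis) for the 38 members found, ordered by the mean over the 7 mice, with 1 point per library (grey, controls, and red, cKO mice, with B8 open). Levels run from 1212 CPM per kb for *Nnat* to 0.0976 for *Phlda2*, whose value of 0 in B1 has no place on the log axis.

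All members together took 1.54% to 2.22% of the counts. *Meg3* alone made up 57.7%, 59.4% and 61.5% of the members' counts in the controls and 51.5%, 49.99%, 60.1% and 48.1% in the cKO mice. Annotated overlaps bear on some levels. In GENCODE vM21, 62.8% of the exon bases of *Igf2* are shared with a gene model on the same strand (Gm49394), and 27.3% of those of *Snrpn* with Gm38393 and *Snurf*. Antisense exons cover 30.7% of *Cdkn1c*, 27.3% of *Ube3a*, 23.1% of *Mest*, 22.0% of *Gnas* and 14.3% of *Usp29*. The strand and overlap settings of the counting were not given in the sources used here, so the levels of these 7 genes are uncertain to that extent. The overlap setting bears on *Igf2* and *Snrpn*, and the strand setting on the others. Reads were counted on GENCODE vM15, where these overlaps may differ.

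Between cKO and control mice, 20 members had a higher and 17 a lower fitted level, and no member passed an edgeR adjusted p of 0.05 (1 of 21817 genes did, 0.00458%, which was *Pou4f2*). The lowest adjusted p among the members was 0.138. At an unadjusted p under 0.05, 10 members were higher in the cKO mice (27.0% of those tested, against 16.7% of all genes) and 4 were lower (10.8% against 13.7%). The groups did not overlap in 4 members that were higher in every cKO mouse (10.8%, against 6.03% of all genes): *Igf2r*, *Grb10*, *Plagl1* and *Peg10*. They did not overlap in 3 that were lower in every cKO mouse (8.11% against 8.01%): *Ndn*, *Snrpn* and *Zrsr1*. For each of these 7 the exact two-sided permutation p was 0.0571, the smallest that 3 against 4 mice can give. The median log2 fold change over the members was 0.05, beside 0.0025 over all genes.

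DESeq2 called 5 members higher (13.5%, against 7.41% of all genes), namely *Peg10*, *Peg3*, *Plagl1*, *Igf2r* and *Grb10*, and 0 lower (3.04% of all genes). Of the 5, *Peg10* had the smallest DESeq2 adjusted p (0.00895), and the others ran from 0.02699 to 0.0412. Without B8, edgeR called 11 members higher (29.7%, against 23.7% of all genes) and 9 lower (24.3% against 23.1%). The 11 were *Igf2r*, *Peg3*, *Zim1*, *Rian*, *Grb10*, *Plagl1*, *Mest*, *Peg10*, *Asb4*, *Peg13* and *Herc3*. The 9 were *Cdkn1c*, *Meg3*, *Mirg*, *Ndn*, *Snrpn*, *Nnat*, *Sgce*, *Trappc9* and *Commd1*. This was 1 of 7 fits that each left out a single mouse, and the other 6 called 0 members. Some markers of other cell types moved with the same 3 mice. In B1, B7 and B9 the summed microglial markers were at 137, 116 and 125 CPM, against 148 CPM in the lowest control. Without *C1qa* and *C1qb* the other 6 microglial markers summed to 103 to 116 CPM in the controls and 97.2 to 108 CPM in the cKO mice, with B1 inside the control range. The radial glia marker *Fabp7* was at 1545, 1509 and 1277 CPM in the controls and 1035, 761, 1293 and 576 CPM in the cKO mice. The other 6 astrocyte and radial glia markers summed to 692 to 708 CPM in the controls and 719.8 to 838 CPM in the cKO mice, higher in every cKO mouse, and the 3 genes left out of these sums were chosen after their values were seen. Their part in the members' calls was not tested. The bulk tissue cannot tell fewer cells of a type from less RNA per cell.

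**Figure D2:**
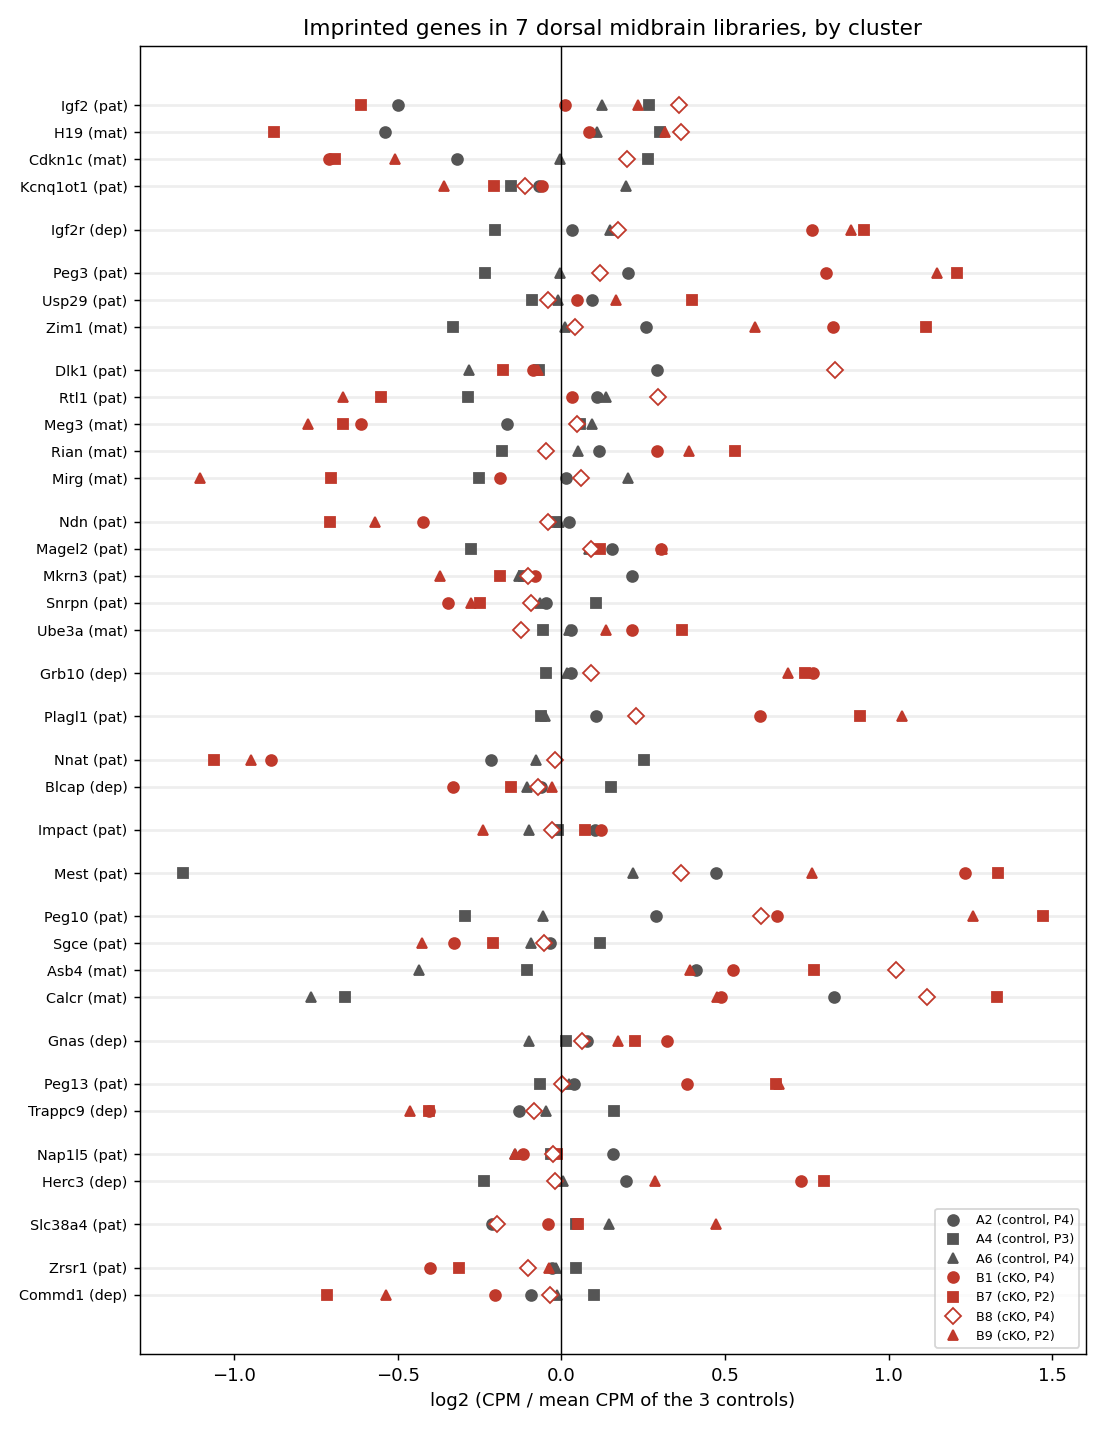
log2 ratio of each library's CPM to the mean CPM of the 3 controls, for the 36 members with a mean of at least 1 CPM, grouped by cluster (pat, paternal; mat, maternal; dep, depends on tissue or transcript). The red filled points (B1, B7 and B9) lie to the right for *Igf2r*, *Peg3*, *Plagl1* and *Mest* and to the left for *Nnat*, *Meg3* and *Ndn*, and the open red point (B8) lies among the grey control points for 22 of the 36 members plotted.

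*Igf2*, the fetal growth factor read from the paternal copy (chr7:142650766-142666816), was at 296, 503 and 455 CPM in the controls and 422, 274, 536 and 492 CPM in the cKO mice. *H19*, the maternal non-coding RNA of the same control region, was at 102, 183 and 160.03 CPM in the controls and 157, 80.7, 191 and 185 CPM in the cKO mice. In both genes A2 and B7 were the lowest libraries, and the group ranges overlapped almost fully. *Igf2* averaged 418 ± 109 CPM (SD, n = 3) in the controls and 431 ± 115 CPM (SD, n = 4) in the cKO mice, and *H19* averaged 148 ± 41.7 CPM (SD, n = 3) in the controls and 154 ± 50.7 CPM (SD, n = 4) in the cKO mice. Neither was called with or without B8.

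Meningeal cells are a known source of *Igf2* in the brain. The summed level of 10 meningeal and fibroblast markers, all 10 detected, was 356, 669 and 578 CPM in the controls and 565, 318, 643 and 523 CPM in the cKO mice, so A2 and B7 were lowest there too. The part of meningeal RNA in the spread of *Igf2* and *H19* was not tested. Choroid plexus markers, the other usual source, summed to 14.2 to 18.6 CPM in the controls and 16.99 to 21.2 CPM in the cKO mice.

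*Igf2r*, the receptor that clears IGF2 into lysosomes (chr17:12682406-12769664), was at 38.96, 33.1 and 42.3 CPM in the controls and 64.8, 72.3, 43.01 and 70.4 CPM in the cKO mice. Every cKO mouse was above every control, B8 by the smallest margin. It differed by 0.72 ± 0.20 (SE, edgeR adjusted p = 0.138) on the log2 scale and by 0.86 ± 0.12 without B8 (edgeR adjusted p = 0.000174). *Grb10*, an adaptor that binds insulin and IGF receptors (chr11:11930508-12038683), was at 67.1, 63.6 and 66.5 CPM in the controls and 112, 110.2, 70.1 and 106 CPM in the cKO mice. The controls were tightly grouped, B8 lay just above them, and the other 3 cKO mice stood well clear. *Grb10* differed by 0.60 ± 0.17 (SE, edgeR adjusted p = 0.138) and by 0.73 ± 0.10 without B8 (edgeR adjusted p = 0.000154). *Plagl1*, a zinc finger transcription factor of the same growth network (chr10:13060504-13131694), was at 38.7, 34.4 and 34.7 CPM in the controls and 54.7, 67.7, 42.1 and 74.01 CPM in the cKO mice, again with no overlap. It differed by 0.73 ± 0.20 (SE, edgeR adjusted p = 0.138) on the log2 scale and by 0.86 ± 0.13 without B8 (edgeR adjusted p = 0.000247).

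*Cdkn1c*, the cyclin-dependent kinase inhibitor p57 read from the maternal copy (chr7:143458339-143461050), was at 48.2, 72.3 and 59.9 CPM in the controls and 36.8, 37.2, 69.2 and 42.3 CPM in the cKO mice. B8 sat among the controls, and the other 3 cKO mice were below all of them. *Cdkn1c* had a log2 fold change of -0.38 ± 0.24 (SE, edgeR adjusted p = 0.296) and of -0.64 ± 0.14 without B8 (edgeR adjusted p = 0.00330). With the GC and exon length trend removed the sign turned, to 0.10 with all mice and 0.06 (edgeR adjusted p = 0.787) without B8. *Kcnq1ot1*, the paternal antisense RNA that silences the *Cdkn1c* domain, was at 240.3 ± 31.2 CPM (SD, n = 3) in the controls and 212 ± 18.8 CPM (SD, n = 4) in the cKO mice, with overlapping ranges and no call with or without B8. The log2 fold change of *Kcnq1ot1* was -0.18 (edgeR adjusted p = 0.366) and -0.21 without B8 (edgeR adjusted p = 0.185). With the trend removed it was -0.98 (edgeR adjusted p = 0.000125) without B8. The exons of *Kcnq1ot1* sum to 93092 bases, beyond the last of the narrow length bins over all genes, which held 32 genes. How well the trend holds at that length was not tested, so the size of this value is uncertain.

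In the *Peg3* cluster on chromosome 7, *Peg3* and *Zim1* lay above every control in B1, B7 and B9. Of all genes tested, 38.7% lay above the controls in B1, 40.1% in B7 and 39.5% in B9. *Peg3* encodes a paternally expressed zinc finger protein linked to growth and maternal care (chr7:6703892-6730431), and its levels were 383, 283 and 331 CPM in the controls and 582, 767, 361 and 736 CPM in the cKO mice. B8 lay between the controls, and the other 3 cKO mice were above every control. On the log2 scale *Peg3* differed by 0.88 ± 0.25 (SE, edgeR adjusted p = 0.138) and by 1.06 ± 0.14 without B8 (edgeR adjusted p = 0.000126). With the GC and exon length trend removed it was 0.40 (edgeR adjusted p = 0.0129) without B8. *Zim1*, the maternally expressed zinc finger neighbour, was at 54.2, 36.02 and 45.6 CPM in the controls and 80.5, 97.9, 46.6 and 68.2 CPM in the cKO mice. It differed by 0.70 ± 0.25 (SE, edgeR adjusted p = 0.138) and by 0.86 ± 0.16 without B8 (edgeR adjusted p = 0.00115), and with the trend removed by 0.39 (edgeR adjusted p = 0.0576) without B8. *Usp29*, a paternally expressed ubiquitin-specific protease gene, was at 149, 132 and 139 CPM in the controls and 145, 185, 136 and 157 CPM in the cKO mice, with overlapping groups and no call with or without B8. After removal of the trend its fitted change turned from 0.21 to -0.66 (edgeR adjusted p = 0.00043) without B8.

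*Peg3* and *Usp29* start from 1 shared promoter and run in opposite directions. RefSeq (GRCm38.p6) places the start of *Peg3* at 6730419 on the minus strand of chromosome 7 and that of *Usp29* at 6730583 on the plus strand, 164 bases apart. The window from 250 bases before to 50 bases after the *Peg3* start is printed 5′ to 3′, in the direction of *Peg3*, because it holds both starts. Capitals mark the stretch from the start of *Usp29* (position 87) to that of *Peg3* (position 251), and the window holds 13 CG dinucleotides.
Peg3 (chr7:6730370-6730669, minus strand): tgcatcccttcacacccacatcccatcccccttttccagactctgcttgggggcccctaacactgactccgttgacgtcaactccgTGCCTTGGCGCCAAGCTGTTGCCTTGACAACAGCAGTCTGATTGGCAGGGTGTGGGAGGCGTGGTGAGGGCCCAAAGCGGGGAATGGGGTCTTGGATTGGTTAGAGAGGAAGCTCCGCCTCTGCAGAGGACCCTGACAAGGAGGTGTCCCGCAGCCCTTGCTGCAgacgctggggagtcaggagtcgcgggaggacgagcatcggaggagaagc

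The ratio of *Peg3* to *Usp29* CPM was 2.56, 2.15 and 2.38 in the controls and 4.02, 4.15, 2.65 and 4.68 in the cKO mice. Every cKO mouse was above every control, with means of 2.36 ± 0.206 (SD, n = 3) against 3.87 ± 0.864 (SD, n = 4). The smallest gap was that of B8. The exons of *Usp29* sum to 18078 bases and those of *Peg3* to 13324 bases.

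In the *Dlk1*-*Dio3* cluster on chromosome 12, the maternal non-coding RNAs had fitted changes of unlike sign. *Meg3* (chr12:109541001-109571726), the member with the most counts, was at 11312, 13209.6 and 13534 CPM in the controls and 8306, 7989.9, 13125 and 7419 CPM in the cKO mice. B8 sat inside the control range and the other 3 cKO mice were lower. The log2 fold change was -0.46 ± 0.20 (SE, edgeR adjusted p = 0.153) and -0.69 ± 0.11 without B8 (edgeR adjusted p = 0.000355). *Rian* (chr12:109603940-109661716), the host of C/D box small nucleolar RNAs further along the same strand, was at 1036, 843 and 991 CPM in the controls and 1173, 1381, 926 and 1253 CPM in the cKO mice. Here B1, B7 and B9 were the 3 highest libraries. *Rian* differed by 0.31 ± 0.16 (SE, edgeR adjusted p = 0.202) and by 0.40 ± 0.11 without B8 (edgeR adjusted p = 0.01095). After a trend with GC content and exon length was removed, the sign of *Rian* turned: without B8 it was -0.45 (edgeR adjusted p = 0.00279), and that of *Meg3* was -1.07 (edgeR adjusted p = 6.88e-05).

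*Mirg*, the host of a microRNA array at the end of the cluster (chr12:109729764-109749460), was at 66.5, 55.3 and 75.8 CPM in the controls and 57.8, 40.4, 68.6 and 30.6 CPM in the cKO mice. Its P2 mice, B7 and B9, were the lowest. It differed by -0.42 ± 0.26 (SE, edgeR adjusted p = 0.279) and by -0.62 ± 0.20 without B8 (edgeR adjusted p = 0.0207). Of the paternal protein-coding genes, *Dlk1*, a Notch-like ligand, was at 12.8, 9.97 and 8.58 CPM in the controls and 9.83, 9.23, 18.6 and 9.94 CPM in the cKO mice, and B8 was the highest library. *Rtl1*, a retrotransposon-derived gene needed in placenta and muscle, was at 34.4, 26.2 and 35.1 CPM in the controls and 32.6, 21.7, 39.1 and 20.1 CPM in the cKO mice. The groups overlapped in both, and neither was called with or without B8.

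The Prader-Willi and Angelman cluster on chromosome 7 held 2 genes that were lower in every cKO mouse and 3 whose groups overlapped. *Ndn*, which encodes the MAGE family protein necdin (chr7:62346569-62350262), was at 626, 609 and 613 CPM in the controls and 459.8, 378, 599 and 415 CPM in the cKO mice. All 4 cKO mice were below the controls, with B8 only just so. The log2 fold change was -0.41 ± 0.16 (SE, edgeR adjusted p = 0.1405) and -0.56 ± 0.10 without B8 (edgeR adjusted p = 0.000934). *Snrpn*, the neuronal splicing protein SmN (chr7:59982495-60140219), was at 507, 564 and 501 CPM in the controls and 412, 441, 492 and 433 CPM in the cKO mice, again with every cKO mouse lower. Its log2 fold change was -0.24 ± 0.12 (SE, edgeR adjusted p = 0.191) and -0.29 ± 0.10 without B8 (edgeR adjusted p = 0.0274), and with the GC and exon length trend removed it was -0.24 (edgeR adjusted p = 0.111) without B8.

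*Magel2*, the MAGE gene next to *Ndn*, was at 38.1 ± 5.84 CPM (SD, n = 3) in the controls and 44.1 ± 3.57 CPM (SD, n = 4) in the cKO mice. *Mkrn3*, a makorin gene tied to the onset of puberty, was at 28.9 ± 4.07 CPM (SD, n = 3) in the controls and 25.5 ± 2.27 CPM (SD, n = 4) in the cKO mice. *Ube3a*, the ubiquitin ligase of Angelman syndrome and the maternal gene of the cluster, was at 259 ± 8.38 CPM (SD, n = 3) in the controls and 289 ± 39.96 CPM (SD, n = 4) in the cKO mice. In each of these 3 the groups overlapped, and none was called with or without B8. After removal of that trend, and with B8 left out, *Ube3a* turned from 0.24 to -0.69 (edgeR adjusted p = 0.000562). In that fit *Magel2* was at 0.51 (edgeR adjusted p = 0.0135).

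*Nnat*, the paternal gene inside an intron of *Blcap* (chr2:157560078-157562522), was at 2421, 3344 and 2659 CPM in the controls and 1518, 1347, 2771 and 1457 CPM in the cKO mice. B8 fell in the control range, and B1, B7 and B9 were all below the lowest control. The fitted difference was -0.66 ± 0.25 (SE, edgeR adjusted p = 0.139) on the log2 scale and -0.97 ± 0.13 without B8 (edgeR adjusted p = 0.000132). With the GC and length trend removed it was -0.26 (edgeR adjusted p = 0.118) without B8. *Blcap*, its host, was at 233 ± 22.7 CPM (SD, n = 3) in the controls and 211 ± 19.03 CPM (SD, n = 4) in the cKO mice, with overlap and no call with or without B8.

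*Peg10*, a retrotransposon-derived gene with gag and pol frames needed in the placenta (chr6:4747306-4760517), was at 60.99, 40.7 and 48.02 CPM in the controls and 78.8, 138, 76.2 and 119 CPM in the cKO mice. Every cKO mouse, B8 included, was above every control. The log2 fold change was 1.05 ± 0.24 (SE, edgeR adjusted p = 0.138) and 1.17 ± 0.19 without B8 (edgeR adjusted p = 0.000499). *Sgce*, which encodes epsilon-sarcoglycan and starts next to *Peg10* on the other strand, was at 43.2, 48.01 and 41.5 CPM in the controls and 35.2, 38.3, 42.7 and 32.97 CPM in the cKO mice. It differed by -0.25 ± 0.14 (SE, edgeR adjusted p = 0.235) and by -0.32 ± 0.12 without B8 (edgeR adjusted p = 0.0362).

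*Asb4*, an ankyrin repeat and SOCS box gene, and *Calcr*, the calcitonin receptor, are maternal genes of the same region. *Asb4* was at 9.003, 6.295 and 5.003 CPM in the controls and 9.72, 11.5, 13.7 and 8.89 CPM in the cKO mice. *Calcr* was at 8.505, 3.02 and 2.81 CPM in the controls and 6.696, 12.01, 10.4 and 6.64 CPM in the cKO mice. In both, A4 and A6 were the lowest libraries, and A2 lay among the cKO mice. *Asb4* differed by 0.70 ± 0.25 (SE, edgeR adjusted p = 0.138) and by 0.57 ± 0.22 without B8 (edgeR adjusted p = 0.0472), and *Calcr* was not called in either. With the GC and exon length trend removed *Asb4* was at 0.36 (edgeR adjusted p = 0.201) without B8.

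*Mest*, a paternal gene of the alpha/beta hydrolase family (chr6:30723547-30748465), was at 52.3, 16.9 and 43.9 CPM in the controls and 88.6, 95.03, 48.5 and 64.2 CPM in the cKO mice. The P3 control A4 was far below the other 6 libraries, and B8 lay between A2 and A6. *Mest* differed by 0.98 ± 0.37 (SE, edgeR adjusted p = 0.139) on the log2 scale and by 1.13 ± 0.30 without B8 (edgeR adjusted p = 0.00901). Without A4 it was 0.62, and without A2 it was 1.27. The size of the change in *Mest* thus depended on which control was left out.

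*Peg13*, a paternal non-coding RNA inside an intron of *Trappc9* (chr15:72805600-72810324), was at 266, 248 and 264 CPM in the controls and 339, 409, 259.9 and 411 CPM in the cKO mice. B8 was within the controls and the other 3 cKO mice were above them. It differed by 0.45 ± 0.17 (SE, edgeR adjusted p = 0.139) and by 0.57 ± 0.11 without B8 (edgeR adjusted p = 0.00107). *Trappc9*, a subunit of a vesicle tethering complex, was at 67.1, 82.01 and 71.1 CPM in the controls and 55.5, 55.4, 69.2 and 53.3 CPM in the cKO mice. It differed by -0.33 ± 0.14 (SE, edgeR adjusted p = 0.155) and by -0.43 ± 0.11 without B8 (edgeR adjusted p = 0.00713), opposite in sign to the gene in its intron.

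*Nap1l5*, a nucleosome assembly protein gene, lies in an intron of *Herc3* and was at 465 ± 49.4 CPM (SD, n = 3) in the controls and 442 ± 19.6 CPM (SD, n = 4) in the cKO mice, with no call with or without B8. *Herc3*, a ubiquitin ligase gene, was at 73.1, 54.2 and 63.98 CPM in the controls and 106, 111, 62.9 and 77.8 CPM in the cKO mice, with a log2 fold change of 0.49 ± 0.21 (SE, edgeR adjusted p = 0.158) and of 0.62 ± 0.15 without B8 (edgeR adjusted p = 0.00519). With the GC and exon length trend removed that of *Herc3* was 0.16 (edgeR adjusted p = 0.448) without B8. *Zrsr1*, a splicing factor-like gene inside *Commd1* on the other strand, was at 50.2, 52.9 and 50.7 CPM in the controls and 38.8, 41.3, 47.8 and 49.9 CPM in the cKO mice, with every cKO mouse below the controls, B9 by a narrow margin, and it was not called with or without B8. With the trend removed *Zrsr1* was at -0.48 (edgeR adjusted p = 0.0108) without B8. *Commd1*, a gene of copper and NF-kappaB control, was at 25.1, 28.7 and 26.5 CPM in the controls and 23.3, 16.3, 26.1 and 18.5 CPM in the cKO mice, and B7 and B9 at P2 were lowest. It differed by -0.35 ± 0.18 (SE, edgeR adjusted p = 0.211) and by -0.48 ± 0.15 without B8 (edgeR adjusted p = 0.0202).

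Among the remaining members, *Gnas*, the gene of the stimulatory G protein alpha subunit, was at 254 ± 15.5 CPM (SD, n = 3) in the controls and 291 ± 21.7 CPM (SD, n = 4) in the cKO mice. *Impact*, an inhibitor of the translation kinase GCN2, was at 161 ± 11.4 CPM (SD, n = 3) in the controls and 159.7 ± 17.1 CPM (SD, n = 4) in the cKO mice. *Slc38a4*, an amino acid transporter, was at 7.73 ± 0.956 CPM (SD, n = 3) in the controls and 8.25 ± 1.73 CPM (SD, n = 4) in the cKO mice. The groups overlapped in all 3, and none was called with or without B8.

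By parental copy, each class held genes that were higher and genes that were lower in the cKO mice, and the difference between classes was not tested. Of 21 paternal genes tested, 5 were higher and 2 lower at an unadjusted edgeR p under 0.05, against 16.7% and 13.7% of all genes, and the median log2 fold change was -0.01. Of 9 maternal genes, 2 were higher and 1 lower, with a median of 0.16. Of the 7 genes whose copy depends on tissue or transcript, 3 were higher and 1 lower, with a median of 0.20. Without B8 the counts of calls were 5 higher and 4 lower for the paternal genes, 3 and 3 for the maternal genes and 3 and 2 for the others, while 23.7% of all genes were called higher and 23.1% lower. Nothing about a class is read from these counts. Single clusters held fitted changes of both signs: *Peg10* against *Sgce*, *Peg13* against *Trappc9*, *Herc3* against *Nap1l5* and *Rian* against *Meg3*, of which the last had 1 sign once the GC and exon length trend was removed.

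By exon length, the medians of the members ran in the same order as those of all genes. Over all genes tested, the median log2 fold change was -0.32 for exons under 2 kb, -0.14 from 2 to 4 kb, 0.13 from 4 to 8 kb and 0.43 at 8 kb or more. The members had medians of -0.37 (2 genes), -0.16 (10 genes), 0.04 (13 genes) and 0.25 (12 genes). In the longest class 9 of the 12 had a positive fitted change, and in the shortest 0 of the 2 did. *Meg3*, *Kcnq1ot1* and *Sgce* were in the longest class with negative fitted changes, and *Mest*, *Calcr* and *Asb4* were in the class from 2 to 4 kb with positive ones. With all 7 mice none of these 6 passed the adjusted threshold, and without B8 *Kcnq1ot1* and *Calcr* did not.

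When a smooth trend with GC content and exon length was removed from each library, no member was called with all 7 mice. With B8 left out as well, 8 members were called higher (21.6%, against 14.0% of all genes) and 11 lower (29.7%, against 16.9%). The calls without B8 held in the same direction for 7 higher members, *Igf2r*, *Peg3*, *Grb10*, *Plagl1*, *Mest*, *Peg10* and *Peg13*. They held for 6 lower members, *Meg3*, *Mirg*, *Ndn*, *Sgce*, *Trappc9* and *Commd1*. *Rian* was called in opposite directions. *Magel2* was the other member called higher, and *Kcnq1ot1*, *Usp29*, *Ube3a* and *Zrsr1* were the others called lower. The call of *Kcnq1ot1* is uncertain, since its exons are longer than the narrow length bins over all genes reach. Before the trend was removed, the fitted changes of *Usp29* and *Ube3a* had been positive. Of the 7, *Mest* was at a log2 fold change of 1.13, *Peg10* and *Plagl1* at 0.77, *Peg13* at 0.50, *Igf2r* at 0.47, *Peg3* at 0.40 and *Grb10* at 0.36. The values of *Peg3*, *Peg10*, *Igf2r* and *Grb10* were thus well below those without the trend removed. Of the 6, *Sgce* was at -0.98, farther from 0 than without the trend removed, *Mirg* at -0.87, *Commd1* at -0.78, *Ndn* at -0.72 and *Trappc9* at -0.51. *Cdkn1c*, *Nnat* and *Snrpn* were no longer called, nor were *Zim1*, *Asb4* and *Herc3*, and the edgeR adjusted p of these 6 ran from 0.0576 (*Zim1*) to 0.787 (*Cdkn1c*). How far the length trend sets any single change was not tested.

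**Figure D3:**
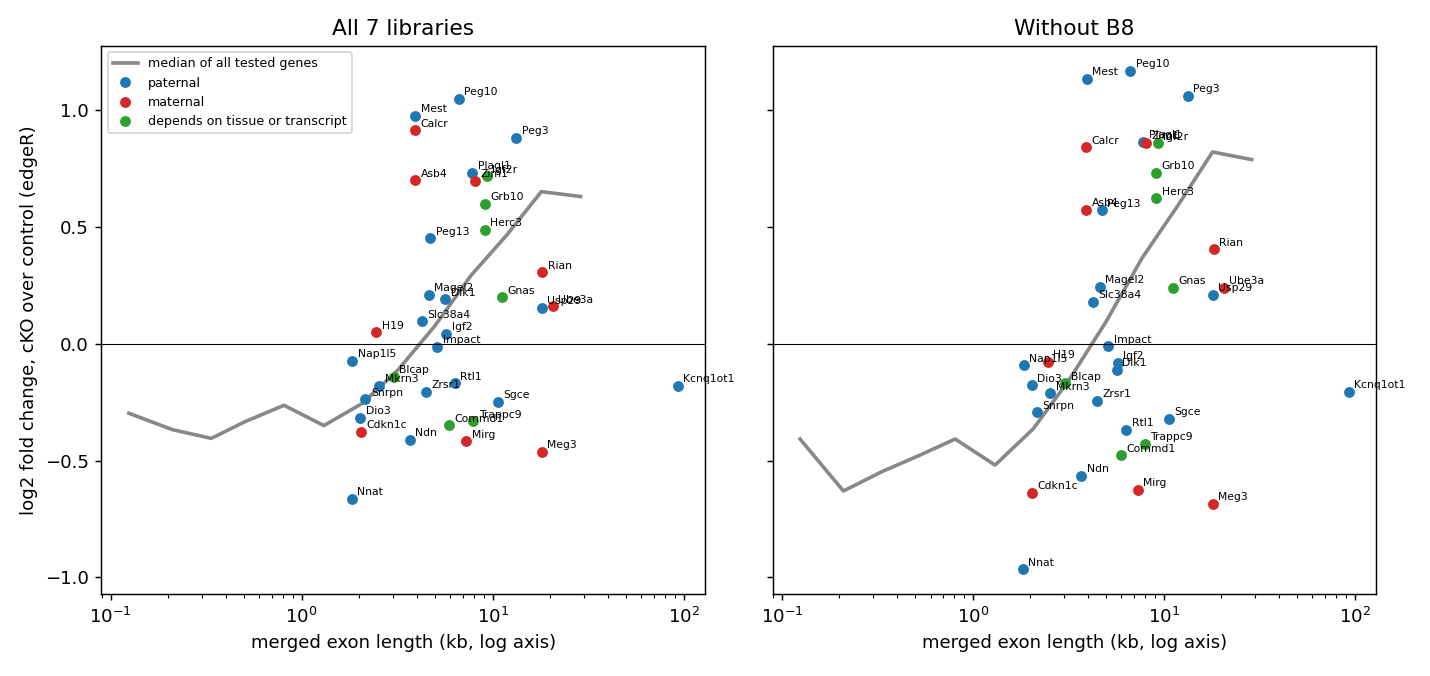
log2 fold change of cKO over control (edgeR) against merged exon length (log axis) for the 37 members tested, coloured by parental copy, with the median of all tested genes in length bins as a grey line, for all 7 libraries (left) and without B8 (right). The grey line climbs from below 0 for short genes to above 0 for long ones, with *Peg10* and *Mest* well above it and *Meg3* well below it. *Kcnq1ot1* lies to the right of the end of the line, with a negative fitted change.

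Ratios of neighbouring members within a library do not depend on the scaling between libraries. The ratio of *Igf2* to *H19*, which share enhancers on opposite parental copies, was steady at 2.83 ± 0.0735 (SD, n = 3) against 2.88 ± 0.346 (SD, n = 4). *Meg3* to *Rian* was 10.9, 15.7 and 13.7 in the controls and 7.08, 5.78, 14.2 and 5.92 in the cKO mice, and B1, B7 and B9 were below every control. *Peg10* to *Sgce* was 1.41, 0.848 and 1.16 in the controls and 2.24, 3.61, 1.78 and 3.62 in the cKO mice, so that all 4 cKO mice were above all controls. *Nnat* to *Blcap* was 10.8, 12.9 and 12.3 in the controls and 8.196, 6.43, 12.5 and 6.38 in the cKO mice. *Peg13* to *Trappc9* was 3.97, 3.03 and 3.71 in the controls and 6.11, 7.38, 3.75 and 7.71 in the cKO mice, and B8 fell among the controls. *Meg3* to *Mirg* was 196 ± 37.5 (SD, n = 3) against 194 ± 40.3 (SD, n = 4), with the groups overlapping. Of the 7 ratios computed, *Peg10* to *Sgce* and *Peg3* to *Usp29* had no overlap between the genotypes.

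**Figure D4:**
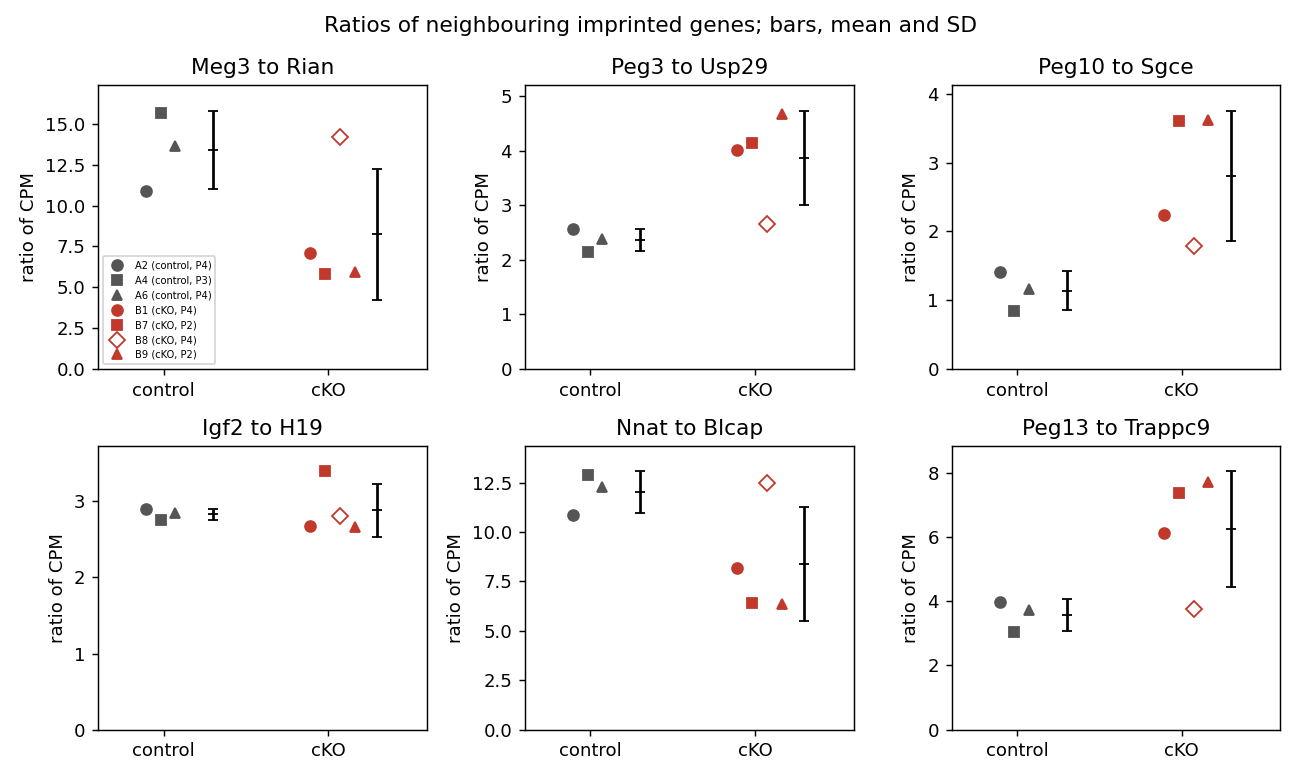
Ratio of the CPM of neighbouring imprinted genes in each library, by genotype, with the mean and SD beside the points (axes start at 0). *Peg10* to *Sgce* and *Peg3* to *Usp29* separate the genotypes, *Igf2* to *H19* lies between 2.66 and 3.39 in every library, and the open point (B8) lies near the controls for *Meg3* to *Rian*, *Nnat* to *Blcap* and *Peg13* to *Trappc9*.

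Many imprinted growth genes are switched down after birth, and the mice ranged from P2 to P4. Only cKO mice were sampled at P2, so age was fitted with genotype in the same model. No member passed an adjusted p of 0.05 for age (0% of all genes did). At an unadjusted p under 0.05, 3 members were higher with age (6.46% of all genes), namely *Rtl1*, *Mirg* and *Ndn*, and 1 was lower (6.09%), namely *Plagl1*. *Rtl1* was at 21.7 and 20.1 CPM in the P2 mice, 26.2 CPM at P3 and 32.6 to 39.1 CPM in the 4 P4 mice of both genotypes. The slope on the log2 scale was 0.39 ± 0.07 per day (SE, edgeR adjusted p = 0.396), and the levels at the 3 ages did not overlap. In GENCODE vM21, 6 antisense microRNA genes cover 8.1% of the exon bases of *Rtl1*. The strand setting of the counting was not given, so its level may hold antisense reads. *Mirg*, further along the same cluster, was at 40.4 and 30.6 CPM at P2, 55.3 CPM at P3 and 57.8 to 75.8 CPM at P4. Its slope was 0.41 ± 0.08 per day (SE, edgeR adjusted p = 0.396).

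DESeq2 called *Rtl1* for age (adjusted p = 0.0379), 1 of 21 genes called among all genes. On every gene with at least 1 count, edgeR called *Rtl1* (adjusted p = 0.0192) and *Mirg* (adjusted p = 0.00486), among 951 genes called. *Ndn* had a slope of 0.18 ± 0.07 per day (SE, edgeR adjusted p = 0.396) and *Plagl1* of -0.23 ± 0.09 per day (SE, edgeR adjusted p = 0.396). In both of these the P2 mice B7 and B9 stood at the end away from the controls, with B1 at P4 next to them. Leaving out any 1 mouse, B8 included, also gave 0 members called for age. Within the 4 cKO mice alone, the smallest adjusted p of a member for P2 against P4 was 0.298. B7 and B9 were also the most deeply sequenced libraries, at 67792192 and 87572085 counts, so depth and age cannot be told apart at P2.

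**Figure D5:**
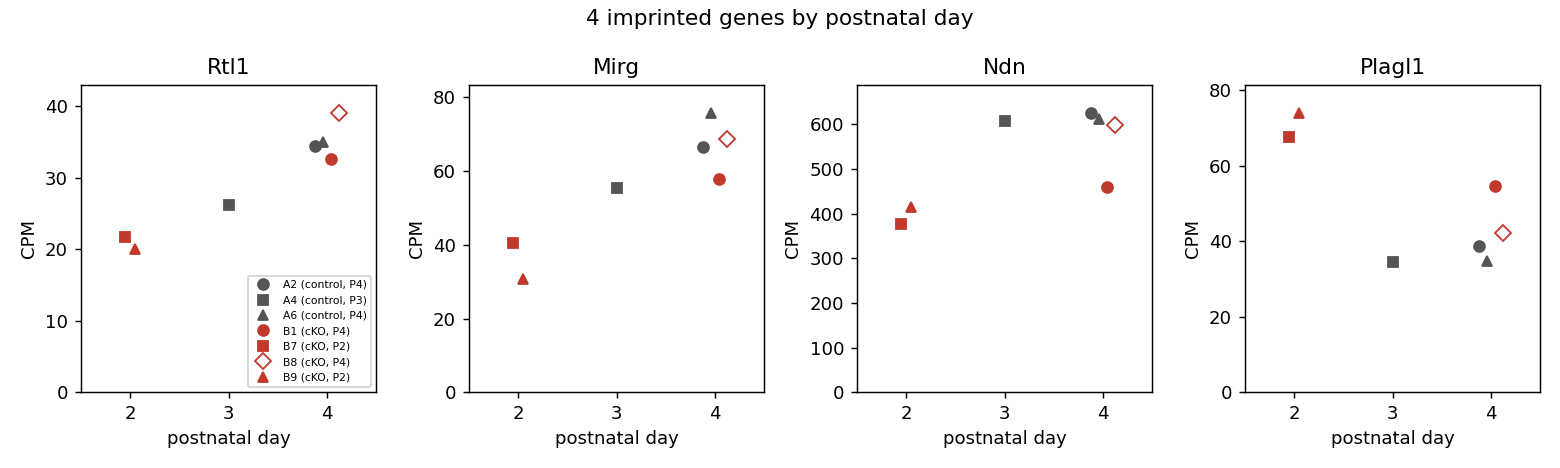
CPM of *Rtl1*, *Mirg*, *Ndn* and *Plagl1* against postnatal day, with 1 point per library, shifted sideways where ages coincide (axes start at 0). *Rtl1* and *Mirg* run from P2 to P4 without overlap between the ages, and *Ndn* and *Plagl1* are split more by B1, B7 and B9 against the rest.

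Promoter windows from RefSeq (GRCm38.p6, 250 bases before to 50 after a start) were found for 30 of the members. The hexamer TGCCGC is the core of the motif bound, when methylated, by ZFP57, a zinc finger protein that keeps imprints. Searched on both strands, where it reads GCGGCA on the other, it was present in a window of 11 of the 30 members (36.7%), against 13.1% of 27025 genes with windows. Members had more windows per gene, and by window the hexamer was in 12 of 48, against 3813 of 32851 (11.6%). The median window of the members held 13 CG dinucleotides and that of all genes 7. The 11 were *Igf2*, *Zim1*, *Meg3*, *Snrpn*, *Grb10*, *Plagl1*, *Nnat*, *Mest*, *Calcr*, *Nap1l5* and *Commd1*, which include genes with positive and with negative fitted changes. A match is a run of letters and not a bound site, and methylation was not measured. The windows of 6 of them are printed 5′ to 3′ in the direction of the gene, with the hexamer in capitals on either strand. They are *Zim1*, *Plagl1* and *Mest*, higher in B1, B7 and B9, *Nnat* and *Meg3*, lower in those mice, and *Nap1l5*, with overlapping groups.
Zim1 (chr7:6696383-6696682, minus strand): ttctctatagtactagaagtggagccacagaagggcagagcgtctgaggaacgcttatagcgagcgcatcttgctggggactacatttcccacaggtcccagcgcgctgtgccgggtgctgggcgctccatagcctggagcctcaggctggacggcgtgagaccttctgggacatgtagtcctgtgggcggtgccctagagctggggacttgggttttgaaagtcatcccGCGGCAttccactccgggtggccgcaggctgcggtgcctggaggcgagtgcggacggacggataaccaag
Plagl1 (chr10:13090582-13090881, plus strand): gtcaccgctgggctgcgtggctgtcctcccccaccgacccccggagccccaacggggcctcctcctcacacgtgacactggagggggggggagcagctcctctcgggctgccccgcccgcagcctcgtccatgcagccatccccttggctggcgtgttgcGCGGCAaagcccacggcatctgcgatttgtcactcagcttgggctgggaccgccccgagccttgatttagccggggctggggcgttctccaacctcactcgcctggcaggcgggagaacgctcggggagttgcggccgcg
Mest (chr6:30737800-30738099, plus strand): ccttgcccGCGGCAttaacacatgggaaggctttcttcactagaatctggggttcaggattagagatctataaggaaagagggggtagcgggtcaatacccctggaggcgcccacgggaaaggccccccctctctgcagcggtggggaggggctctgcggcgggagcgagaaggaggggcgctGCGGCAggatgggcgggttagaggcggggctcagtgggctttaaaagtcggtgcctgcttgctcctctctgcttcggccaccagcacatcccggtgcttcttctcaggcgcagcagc
Nnat (chr2:157559828-157560127, plus strand): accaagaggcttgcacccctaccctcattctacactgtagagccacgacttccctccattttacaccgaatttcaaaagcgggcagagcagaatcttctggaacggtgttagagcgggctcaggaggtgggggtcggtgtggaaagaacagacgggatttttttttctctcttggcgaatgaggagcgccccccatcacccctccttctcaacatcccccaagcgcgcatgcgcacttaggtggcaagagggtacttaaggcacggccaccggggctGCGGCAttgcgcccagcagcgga
Meg3 (chr12:109540746-109541045, plus strand): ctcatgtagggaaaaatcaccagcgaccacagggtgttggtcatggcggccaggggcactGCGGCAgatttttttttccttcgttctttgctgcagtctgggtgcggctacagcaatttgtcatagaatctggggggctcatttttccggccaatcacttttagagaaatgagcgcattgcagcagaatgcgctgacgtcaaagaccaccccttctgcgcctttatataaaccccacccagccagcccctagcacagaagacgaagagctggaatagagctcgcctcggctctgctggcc
Nap1l5 (chr6:58907077-58907376, minus strand): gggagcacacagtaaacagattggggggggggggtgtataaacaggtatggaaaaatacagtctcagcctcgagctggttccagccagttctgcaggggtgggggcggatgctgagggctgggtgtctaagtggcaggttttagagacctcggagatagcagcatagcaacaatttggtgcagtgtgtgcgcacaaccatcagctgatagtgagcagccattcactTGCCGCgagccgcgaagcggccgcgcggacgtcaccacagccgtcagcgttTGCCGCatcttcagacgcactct

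*Mest* and *Nap1l5* held the hexamer at 2 places and the others at 1. The CG count was 26 for *Plagl1*, 20 for *Zim1*, 17 for each of *Mest*, *Nnat* and *Nap1l5*, and 13 for *Meg3*. Whether a match goes with a direction of change was not tested.

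With all 7 mice, the summed markers of each cell type examined overlapped between genotypes, and without B8 those of microglia, through *C1qa* and *C1qb*, and of astrocytes and radial glia, through *Fabp7*, did not. Microglial markers summed to 148 to 208 CPM in the controls and 116 to 155 CPM in the cKO mice, astrocyte and radial glia markers to 1969 to 2239 CPM in the controls and 1352 to 2012 CPM in the cKO mice, and endothelial and mural markers to 253 to 316 CPM in the controls and 294 to 343 CPM in the cKO mice. The markers of dividing cells, at 70.3 to 89.8 CPM in the controls and 68.9 to 111 CPM in the cKO mice, and of neurons, at 6205 to 6920.1 CPM in the controls and 6182 to 7201 CPM in the cKO mice, overlapped. Oligodendrocyte lineage markers summed to 353 to 409.6 CPM in the controls and 297 to 421 CPM in the cKO mice and red blood cell markers to 133 to 497 CPM in the controls and 58.3 to 181 CPM in the cKO mice. Abundant nuclear non-coding RNAs outside the imprinted clusters summed to 4798 to 6186 CPM in the controls and 5865 to 6744 CPM in the cKO mice. These RNAs were at 6733, 6744 and 6249 CPM in B1, B7 and B9, above every control. Counts of calls among the markers without B8 stand beside 23.7% of all genes called higher and 23.1% called lower by edgeR. Of 8 microglial markers, 0 were called higher and 4 lower, of 10 endothelial and mural markers 6 higher and 1 lower, and of 7 oligodendrocyte lineage markers 1 higher and 4 lower. Of 9 neuronal markers 4 were called higher, among them *Map2* at a log2 fold change of 1.01, and 3 lower, among them *Rbfox3* at -0.80. With all 7 mice *Map2* was at 0.81 and *Rbfox3* at -0.58 (edgeR adjusted p = 0.138 for each). Of 7 astrocyte and radial glia markers 2 were called higher and 2 lower. With all mice DESeq2 called 3 markers lower (3.04% of all genes), the microglial *C1qa* (adjusted p = 0.0342) and *C1qb* (adjusted p = 0.0262) and the pituitary *Pomc* (adjusted p = 0.0254). It called 6 higher (7.41% of all genes), namely *Sim1* of the hypothalamic list (adjusted p = 0.00109), *Abcc9*, *Mki67*, *Map2*, *Gad2* and *Pdgfra*. *Sim1* was at 0.332, 0.0999 and 0.07304 CPM in the controls and 1.07, 2.37, 1.31 and 0.788 CPM in the cKO mice, with no overlap. Dorsal midbrain markers were present in every library and summed to 439.7 to 521 CPM in the controls and 413 to 523 CPM in the cKO mice. Hypothalamic and pituitary markers summed to 3.57 to 8.59 CPM in the controls and 3.91 to 7.69 CPM in the cKO mice, with *Prl* at 0. The part of these cell types in the members' levels was not tested.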

How the data were processed

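The authors sequenced dorsal midbrain mRNA, trimmed the reads, aligned them with TopHat2 and Bowtie 2 to GRCm38.p5 and counted reads per gene of GENCODE vM15 with HTSeq. The deposited values are raw counts, not normalized. The strand and overlap options of HTSeq were not given in the sources used here. Entries that name no gene (30.98% to 38.18% per library) were left out. Symbols, positions and exon lengths came from GENCODE vM21 (52489 identifiers matched and 147 did not).

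Groups and ages came from the labels. In R 4.3.3, edgeR 4.0.16 (filterByExpr with minimum count 10 and total 15, TMM, quasi-likelihood F test, Benjamini-Hochberg adjustment) was fitted to all genes with genotype as the only term, or with genotype and age. The SE was derived from the coefficient and F. CPM use TMM-scaled totals. Exact two-sided permutation tests on log2 CPM (prior count 2) ran over all 35 ways to draw the controls. DESeq2 1.42.0, limma-voom with weights for sample quality (limma 3.58.1), other filters and scalings, subsets by age, thinned counts and each mouse left out were the alternatives. After the data had been seen, a fit with a GC and exon length trend removed (mgcv 1.9.3) was added, with and without B8. The statistics were tested on simulated data. Counts of any 2 libraries of a genotype disagreed beyond sampling noise (chi-square per degree of freedom 7.86 to 255), and each library is 1 replicate. The labels do not say whether the mice share litters, and p-values measure the spread between these mice. The depth was 23588248 counts or more per library, and 36 members had a mean of at least 1 CPM.

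The members and all gene lists were chosen with earlier results of these data known. Members with a mean of at least 1 CPM are named with values and the others with their counts. Fold changes are printed for members with an unadjusted p under 0.05 or called without B8, before or after the GC and exon length trend was removed. From 2 further lists, the 6 genes with the smallest edgeR p and a mean of at least 1 CPM are named.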

Additional observations from a re-analysis of the deposited data

Results flagged for a closer look

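Within the 4 cKO mice, 6 of the 38 members counted had 1 library farther from the others than Dixon's test allows at 95%, and in all 6 it was B8 (15.8%). Over the 21817 genes tested the same held for 7.36%, and for 5.43% with B8 as that library. By chance about 5% of groups are singled out. B8 was the highest cKO library for *Cdkn1c* (69.2 CPM), *Dlk1* (18.6 CPM), *Meg3* (13125 CPM), *Nnat* (2771 CPM) and *Trappc9* (69.2 CPM), and the lowest for *Grb10* (70.1 CPM). In *Cdkn1c*, *Meg3*, *Nnat* and *Trappc9* the value of B8 lay inside the range of the controls, in *Grb10* just above it, and in *Dlk1* above every other library. The genes of 1 cluster are not independent of each other, and the reason for the position of B8 was not tested.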

How the results depend on the processing

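Leaving out 1 mouse at a time gave 0 to 11 members called higher and 0 to 9 called lower, and the calls came only when B8 was left out. For age the same runs gave 0 calls. Members called by edgeR were otherwise 0 with RLE or upper-quartile factors, 3 other filters on genes, thinned counts, age as a covariate, P4 mice only and the controls against P4 cKO mice. DESeq2 called 5 higher, limma-voom with quality weights 13 higher and 9 lower (10583 of all genes), and the controls against the P2 cKO mice 10 higher and 10 lower (10425 of all genes). With the GC and length trend removed the count stayed at 0 and 0, and with B8 left out as well it was 8 higher and 11 lower (6739 of all genes). *Cdkn1c* turned to 0.10 (0.062 without B8) and *Rian* to -0.34 (-0.45 without B8) under that trend removal, which leaves a change relative to genes of like length and GC. *Usp29* turned to -0.48 (-0.66 without B8) and *Ube3a* to -0.53 (-0.69 without B8). For age, DESeq2 called 1 member higher, and edgeR on every gene with at least 1 count called 2 higher. With raw library totals the control mean of *Ndn* was 625 CPM, beside 616 CPM. The cause of the other shifts was not tested. No paired analysis was possible because controls and cKO mice carry different numbers in the labels. In all other alternatives run, signs were followed for members with an unadjusted edgeR p under 0.05 or called without B8 before trend removal. They were also followed for the genes named from the further lists, and no sign turned. The other fold changes printed, such as those of *Kcnq1ot1*, *Usp29*, *Ube3a*, *Magel2* and *Zrsr1*, were not followed. With 3 and 4 mice an exact permutation test cannot fall below 0.0571, and at 17 to 58 counts per library the depth limits what *Dio3* can show.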

Other observations

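Of 50 genes imprinted in some tissue but outside the list, 44 were tested, 13 were higher and 5 lower at an unadjusted edgeR p under 0.05 (16.7% and 13.7% of all genes), and the median log2 fold change was 0.04. No gene of them passed the edgeR adjusted threshold, and without B8 edgeR called 13 higher and 6 lower of 43 tested (23.7% and 23.1% of all genes). With all 7 mice DESeq2 called 6 higher and 0 lower (7.41% and 3.04% of all genes). Of the 44, 2 were higher in every cKO mouse with no overlap (6.03% of all genes). Another 2 were lower in every cKO mouse (8.01%), *Zim3*, with a mean of 0.254 CPM, and *Bcl2l1*. Of the 6 with the smallest p, *Kcnk9*, a potassium channel gene next to *Peg13* and *Trappc9*, was at 2.99, 0.874 and 1.79 CPM in the controls and 16.4, 13.9, 3.79 and 8.12 CPM in the cKO mice. Every cKO mouse was above every control, with a log2 fold change of 2.51 ± 0.56 (SE, edgeR adjusted p = 0.138) and 2.80 ± 0.38 without B8 (edgeR adjusted p = 0.000153). *Htr2a*, a serotonin receptor gene, was at 1.49, 0.5496 and 1.13 CPM in the controls and 6.23, 8.09, 1.75 and 4.49 CPM in the cKO mice, also with no overlap, and differed by 2.31 ± 0.54 (SE, edgeR adjusted p = 0.138) and by 2.60 ± 0.35 without B8 (edgeR adjusted p = 0.000153). DESeq2 gave adjusted p-values of 0.000349 for *Kcnk9* and 0.00189 for *Htr2a*, and of 0.0321 to 0.0462 for the other 4 of the 6. The log2 fold changes of the other 4 were *Ago2* (0.82 ± 0.24, and 1.00 without B8), *Snhg14* (0.90 ± 0.28, and 1.11 without B8), *Ppp1r9a* (0.74 ± 0.23, and 0.92 without B8) and *Atp10a* (0.82 ± 0.27, and 0.99 without B8). *Snhg14*, the long RNA that runs antisense to *Ube3a*, was at 156, 122 and 163 CPM in the controls and 284, 361, 143 and 307 CPM in the cKO mice. *Snurf* had 0 counts in every library. Its exons sum to 216 bases and overlap those of *Snrpn* on the same strand. The overlap option of the counting was not given, so this 0 cannot be read as absence of the RNA.

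Of 27 listed factors that set, keep or read imprints, 25 were tested, 21 had a positive fitted change, 11 were higher and 0 lower at an unadjusted edgeR p under 0.05 (16.7% and 13.7% of all genes), and the median log2 fold change was 0.41. None passed the edgeR adjusted threshold, and without B8 edgeR called 17 higher and 2 lower (23.7% and 23.1% of all genes). With all 7 mice DESeq2 called 4 higher and 0 lower (7.41% and 3.04% of all genes). The summed level of the list was 3303, 4095 and 4068 CPM in B1, B7 and B9 and 2538 CPM in B8, against 2576 to 2655 CPM in the controls, so that B8 was below every control. In 0 of the factors did every cKO mouse lie above every control (6.03% of all genes). The 6 with the smallest p were the 5-methylcytosine oxidases *Tet1* (1.04 ± 0.30, and 1.27 without B8), *Tet2* (1.01 ± 0.32, and 1.23 without B8) and *Tet3* (0.60 ± 0.20, and 0.74 without B8), the chromatin protein *Smchd1* (0.85 ± 0.26, and 1.05 without B8), the imprint-keeping zinc finger protein *Zfp445* (0.91 ± 0.28, and 1.11 without B8) and the DNA methyltransferase *Dnmt3a* (0.47 ± 0.16, and 0.57 without B8). *Tet1* was at 40.9, 37.3 and 42.3 CPM in the controls and 88.2, 112, 38.6 and 90.9 CPM in the cKO mice, and B8 lay inside the control range. *Zfp445* was at 168, 131 and 159.8 CPM in the controls and 272, 353, 151 and 370.04 CPM in the cKO mice, with B8 again among the controls. The exons of these 6 sum to 7409 to 19982 bases, a length at which all genes were higher in the median (0.13 from 4 to 8 kb and 0.43 at 8 kb or more). *Dppa3*, an oocyte factor, was at 0 in every library.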
